A study of Mus musculus with 9 samples.

Results

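DNA methylation at single CpGs was compared between plasma cells and plasmablasts, the late step of the response of mouse B cells to lipopolysaccharide (LPS), a bacterial cell wall component. The members of the comparison were the 489874 of 911004 deposited CpGs (53.8%) that held 10 or more reads, methylated and unmethylated together, in each of the 3 plasmablast and 3 plasma cell libraries; these are 6 of the 9 libraries of the study. The cells were sorted from spleens of female C57Bl/6J mice, a common inbred strain, aged 10 weeks. Plasmablasts (CD138+ with intermediate B220) and plasma cells (CD138+ with low B220) were both taken on day 3 after LPS, and the remaining 3 libraries are naive B cells (B220+ CD43-) from mice given no LPS. No group carries an engineered allele. The labels do not say which or how many animals gave a library, so the spread between libraries may be technical in part.

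A CpG is a cytosine followed by a guanine, the main site of DNA methylation in mammals. The enzyme Dnmt1 copies methylation onto the new strand when DNA is replicated, and Tet enzymes oxidise it. Naive B cells that meet LPS divide, become plasmablasts and then stop dividing as plasma cells, which secrete antibody. CpG-rich start sites of genes are mostly unmethylated, while most other CpGs are methylated. On the silenced X chromosome of female cells, and on a single parental copy at imprinted genes, start sites are methylated as well, which gives intermediate levels.

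Start sites of both kinds were among the regions called lower in plasma cells, and the stretches below show where the measured CpGs lie in 4 X-linked start site regions and 1 imprinted one. Of 127 start site regions called lower in plasma cells, 86 had an entry in RefSeq's promoter table, 53 of these had a measured CpG in the 250 bases before the start site, and in 25 each measured CpG fell on a CG of the sequence when placed by its deposited distance to the start. Among the 9 of those with at least 4 measured CpGs there, the 4 X-linked stretches and that of the imprinted Igf2r are printed, 5′ to 3′ on the gene's strand and ending at the start site. Capitals mark the measured CpGs.
Gpm6b: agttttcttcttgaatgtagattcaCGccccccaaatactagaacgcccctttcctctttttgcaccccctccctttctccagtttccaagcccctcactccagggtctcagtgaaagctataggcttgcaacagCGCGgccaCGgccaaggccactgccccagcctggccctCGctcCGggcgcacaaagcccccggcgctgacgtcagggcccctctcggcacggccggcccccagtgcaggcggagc
Phf8: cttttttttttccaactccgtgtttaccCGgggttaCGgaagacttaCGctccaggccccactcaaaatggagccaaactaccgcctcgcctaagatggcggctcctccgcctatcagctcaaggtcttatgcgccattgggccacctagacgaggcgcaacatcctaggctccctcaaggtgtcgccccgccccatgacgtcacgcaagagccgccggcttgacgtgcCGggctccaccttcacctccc
Gpc3: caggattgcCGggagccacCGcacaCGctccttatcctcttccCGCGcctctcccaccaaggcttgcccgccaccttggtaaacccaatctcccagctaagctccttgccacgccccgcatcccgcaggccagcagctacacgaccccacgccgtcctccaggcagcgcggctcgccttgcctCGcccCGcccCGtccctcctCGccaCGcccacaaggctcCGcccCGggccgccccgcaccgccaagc
Rbm10: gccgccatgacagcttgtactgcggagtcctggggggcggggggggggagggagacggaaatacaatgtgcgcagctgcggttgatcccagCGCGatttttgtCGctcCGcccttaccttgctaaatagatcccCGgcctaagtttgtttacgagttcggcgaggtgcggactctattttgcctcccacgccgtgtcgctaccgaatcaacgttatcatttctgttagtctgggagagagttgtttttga
Igf2r: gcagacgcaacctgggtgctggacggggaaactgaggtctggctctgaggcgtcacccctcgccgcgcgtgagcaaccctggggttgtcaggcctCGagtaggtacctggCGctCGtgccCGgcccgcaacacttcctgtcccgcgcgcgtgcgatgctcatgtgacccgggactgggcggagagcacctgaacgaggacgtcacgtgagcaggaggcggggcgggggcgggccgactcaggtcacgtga
In build GRCm38.p6 these are chrX:166238693-166238942 on the plus strand for Gpm6b (a neuronal membrane glycoprotein), chrX:151520422-151520671 plus for Phf8 (a histone demethylase), chrX:52613975-52614224 minus for Gpc3 (a cell surface proteoglycan), chrX:20617253-20617502 plus for Rbm10 (an RNA-binding splicing factor) and chr17:12769707-12769956 minus for Igf2r (the receptor that clears insulin-like growth factor 2). They hold 12 measured CpGs of 25 in Gpc3, 6 of 15 in Gpm6b, 5 of 20 in Rbm10, 4 of 19 in Phf8 and 4 of 27 in Igf2r.

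At each of these measured CpGs the mean level was lower in the plasma cell libraries, which choosing regions called lower in the same libraries favours. In Gpc3 the CpG 203 bases before the start had mean levels of 31.9% in plasmablasts and 15.8% in plasma cells, and the CpG 45 bases before it had 15.3% and 7.43%. In Phf8 the CpG 20 bases before the start stood at 70.1% and 30.9%, whereas the CpG 213 bases before it stood at 39.1% and 37.5%. In Igf2r the 4 CpGs between 128 and 153 bases before the start had means of 43.9% to 55.6% in plasmablasts and 35.6% to 40.2% in plasma cells. Plasma cell 1, at 47.1% to 58.8%, lay within the plasmablast range at each of these CpGs. Plasma cells 2 and 3 had 20% to 40%. Single CpGs in a stretch therefore differed from each other in level and in the size of the difference.

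Total reads over all deposited CpGs ran from 17366816 to 19304010 in the plasmablast libraries and from 23168926 to 26202053 in the plasma cell libraries. The median coverage of the compared CpGs was 24 to 27 reads in plasmablasts and 26 to 33 in plasma cells. Pearson's r of CpG levels between replicates was 0.960 to 0.965. The libraries also differed in a background that is not specific to genes: over 122777 CpGs with a mean below 5% in the 6 libraries, plasmablasts 1 to 3 had mean levels of 2.51%, 5.66% and 1.89%, and plasma cells 1 to 3 had 1.08%, 1.13% and 1.03%. At 5 CpGs of mitochondrial DNA the levels were 3.31%, 6.60% and 3.11% in plasmablasts and 1.08%, 0.996% and 0.841% in plasma cells. Naive B cell 1 had a background of 1.05%, like the plasma cells, and naive B cells 2 and 3 had 3.48% and 3.10%. A background under 1.5% was thus shared by all plasma cell libraries and by no plasmablast library, and this set of libraries cannot be told apart from cell stage. Differences below are therefore also given after subtracting each library's background, and from a fit of all 9 libraries with the library set as a covariate (the 9-library fit), which compares plasma cells with naive B cell 1 and plasmablasts with naive B cells 2 and 3 and so leans on a single naive library.

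Over all compared CpGs plasmablasts 1 to 3 had mean levels of 51.2%, 53.5% and 51.8%, and plasma cells 1 to 3 had 49.2%, 46.7% and 46.1%. The groups did not overlap, and plasma cell 1 lay between the plasmablasts and the other two plasma cell libraries. The group means were 52.2% ± 1.19 and 47.3% ± 1.66 (SD, n = 3 each), a difference of -4.85 percentage points (exact two-sided permutation test, p = 0.1, the smallest that 3 against 3 libraries allow). The difference was -3.77 points with the background subtracted and -2.68 in the 9-library fit. Pooling the reads in place of averaging CpGs gave -10.99 points. The share of reads within 1 kb of a start site, where most CpGs are unmethylated, was 24.9% to 28.1% in plasmablasts, 27.1% in plasma cell 1, and 33.8% and 32.7% in plasma cells 2 and 3.

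Each class of CpG was lower in plasma cells. By the authors' annotation, promoter CpGs had means of 18.6% ± 1.98 in plasmablasts and 14.5% ± 0.661 in plasma cells, a difference of -4.08 points. Exon CpGs differed by -3.90 points, intron CpGs by -5.11 and intergenic CpGs by -5.49. Subtracting the background by its form takes most from low levels. After it the promoter difference was -2.19 points and the intergenic one -4.77, and in the 9-library fit they were -1.41 and -3.53. CpGs within 1 kb of a start site went from -3.78 to -1.78 and -1.15 points in the same way. The 3 plasma cell libraries lay below the 3 plasmablast libraries on all 20 chromosomes, with differences from -4.60 points to -6.93 points on the X chromosome. Each of the 9 class means gave the same exact permutation p of 0.1, and the difference between intergenic and promoter CpGs in their change, -1.41 points, gave p = 0.3 (exact permutation, adjusted p = 0.375 over 5 such tests).

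**Figure D1:**
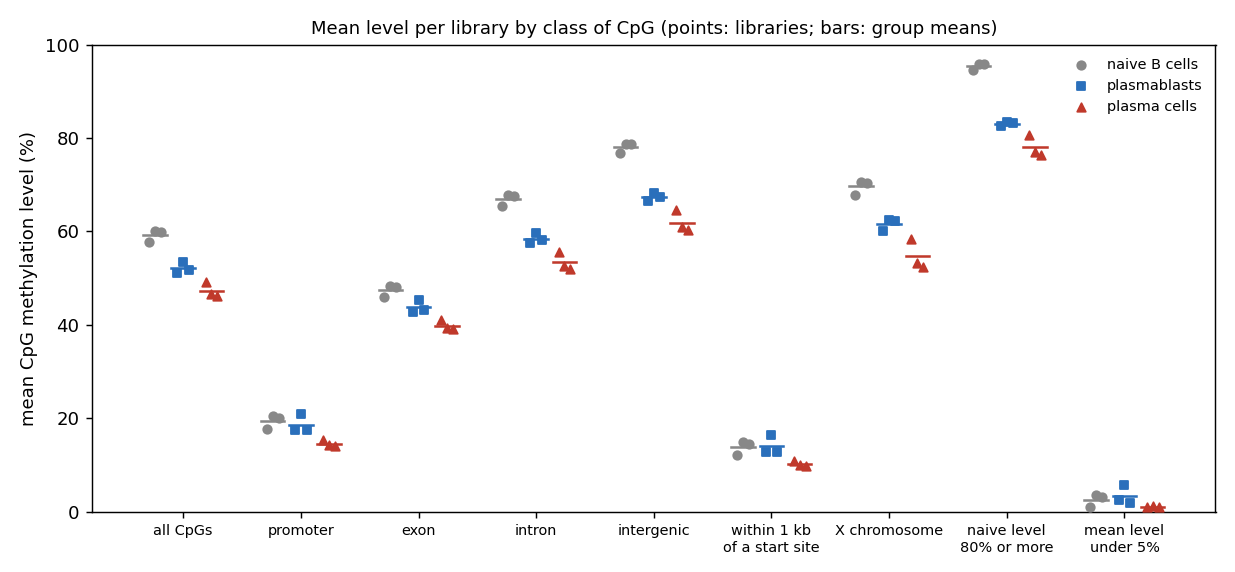
Mean CpG methylation level in percent for each library (points) in 9 classes of CpG, with group means as bars. Plasma cell libraries lie below plasmablast libraries in all classes, and the class with a mean under 5% shows the background of 1.89% to 5.66% in plasmablasts and about 1.1% in plasma cells.

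The size of the difference followed the level in naive B cells, which the comparison does not use. CpGs at 40% to 60% in pooled naive reads had 42.9% ± 2.33 in plasmablasts and 33.5% ± 3.23 in plasma cells, a difference of -9.40 points over 14972 CpGs. CpGs at 60% to 80% differed by -9.21 points, those at 80% to 90% by -7.95 and those at 90% to 95% by -6.08. The bin of 40% to 60% became -8.15 points with the background subtracted and -5.05 in the 9-library fit, and in both the bin of 60% to 80% was the largest, at -8.32 and -6.05 points. The 176999 CpGs with a naive level of 95% or more stood at 86.5%, 87.2% and 87.0% in plasmablasts and 85.2%, 81.9% and 81.3% in plasma cells, a difference of -4.14 points. With the background subtracted the difference at these methylated CpGs was -3.88 points, and in the 9-library fit it was -3.14. By its form the subtraction changes high levels little, so the first value is no check on the background. At CpGs of 5% to 20% in naive B cells the difference of -4.56 points became -2.50 with the background subtracted and 0.25 in the 9-library fit, so no direction holds there.

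**Figure D2:**
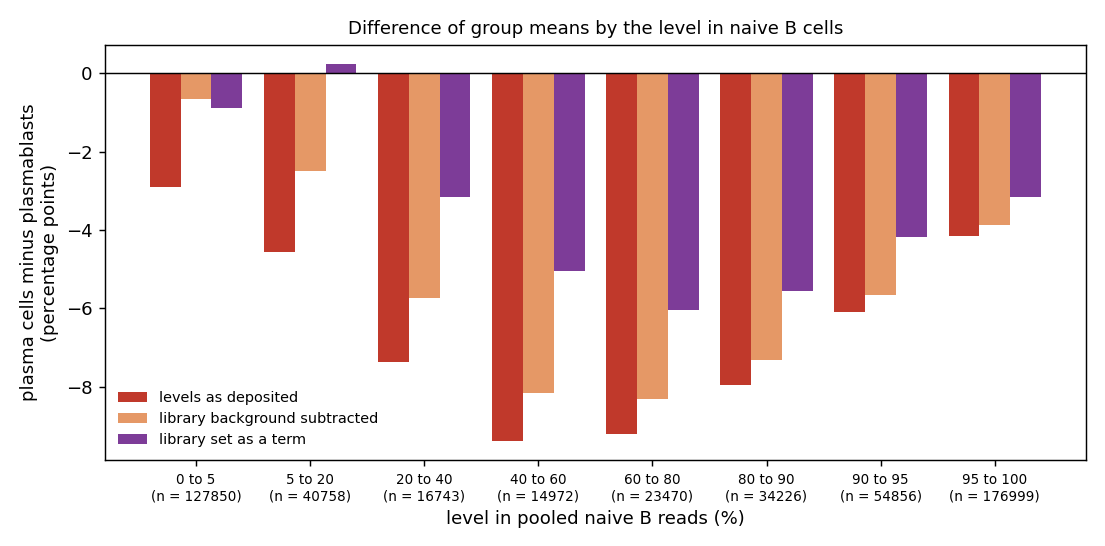
Plasma cells minus plasmablasts in percentage points, by the level in pooled naive B reads, from the levels as deposited, with library background subtracted and in the 9-library fit. The deposited difference is largest at 40 to 60% (-9.40 points), and the bin of 5 to 20% turns to 0.25 in the 9-library fit.

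Among CpGs with a naive level of 95% or more, those that stood alone were lowest in plasma cells. The 47917 CpGs with no other deposited CpG within 100 bp had 84.1%, 85.2% and 85.1% in plasmablasts and 82.0%, 77.3% and 76.6% in plasma cells. CpGs with 3 to 5 neighbours had 89.6%, 90.1% and 89.8% against 88.7%, 86.8% and 86.3%. The differences were -6.17 points for lone CpGs, -3.75 with 1 to 2 neighbours, -2.56 with 3 to 5, -2.08 with 6 to 10 and -2.70 over the 153 CpGs with 11 or more. Lone CpGs minus those with 3 to 10 neighbours stood at -5.25 ± 0.461 points in plasmablasts and -8.91 ± 1.68 in plasma cells, a change of -3.67 points with no overlap between the libraries of the groups (exact permutation p = 0.1, adjusted 0.25). This split was chosen after seeing the data. By distance to a start site, these CpGs differed by -4.19 points within 1 kb and -4.04 beyond 100 kb. Over CpGs with a naive level of 80% or more, those beyond 10 kb differed by -4.92 points and those within 1 kb by -5.56, a gap of 0.64 points with no overlap between the libraries of the groups (exact permutation p = 0.1, adjusted 0.25).

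**Figure D3:**
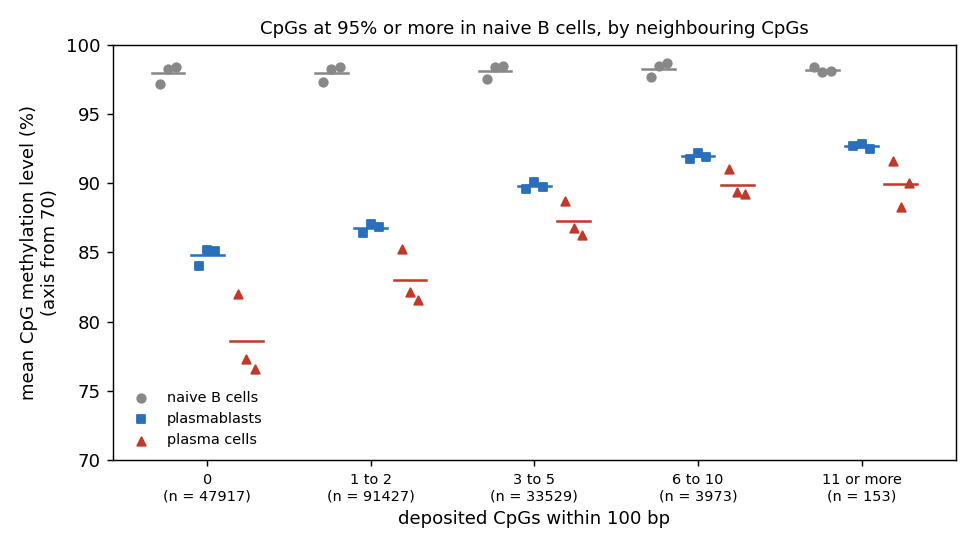
Mean level in percent (axis from 70) of CpGs with a naive level of 95% or more, for each library, by the number of deposited CpGs within 100 bp. Lone CpGs stand at 84.1% to 85.2% in plasmablasts and 76.6% to 82.0% in plasma cells, and both groups are higher with more neighbours.

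Start sites with intermediate levels in naive B cells (25% to 60%, within 1 kb) showed larger differences than all CpGs within 1 kb of a start site, on the X chromosome and elsewhere. CpGs of any location differed by -7.37 points at 20% to 40% in naive B cells and by -9.40 at 40% to 60%. A larger difference is thus not particular to start sites. These bounds were also chosen after seeing the data. The 2421 such CpGs of the X chromosome had 34.7%, 39.9% and 39.0% in plasmablasts and 33.0%, 24.5% and 24.8% in plasma cells. The difference was -10.4 points, -9.06 with the background subtracted and -5.54 in the 9-library fit, with plasma cell 1 closer to the plasmablasts than to plasma cells 2 and 3. The 174 CpGs of autosomal imprinted genes had 43.5%, 51.0% and 48.4% against 41.4%, 28.8% and 28.3%, a difference of -14.8 points (-13.7 with the background subtracted and -9.99 in the 9-library fit). The 4699 CpGs of other autosomal start sites had 32.9%, 37.4% and 35.7% against 29.7%, 25.6% and 24.9%, a difference of -8.60 points (-7.16 and -4.05). The change on the X chromosome differed from that at the other autosomal start sites by -1.82 points (exact permutation p = 0.4, adjusted 0.4), and that at imprinted genes by -6.18 points (exact permutation p = 0.2, adjusted 0.333). With a smallest possible p of 0.1 these tests do not show that the changes were alike. The imprinted CpGs minus the other autosomal ones stood at 10.5, 13.6 and 12.7 points in plasmablasts and at 11.7, 3.19 and 3.39 in plasma cells, so plasma cell 1 alone overlapped the plasmablasts. Beside these levels, the median read depth within 1 kb of start sites on the X chromosome was divided by that on autosomes. The ratio was 0.917, 1 and 0.952 for plasmablasts 1 to 3, and for plasma cells 1 to 3 it was 0.903, 0.781 and 0.821; its part in the X-linked levels was not tested. CpGs with a naive level of 95% or more differed by -4.20 points on the X chromosome and by -4.14 on autosomes.

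Levels were then averaged per gene over the CpGs whose closest gene it is in the authors' annotation, for genes with 5 or more compared CpGs (gene loci). With limma on these means, 762 of 15797 gene loci (4.82%) were called lower in plasma cells at a Benjamini-Hochberg adjusted p under 0.01 and at least 5 points, and 0 were called higher (0%), with 7 higher and 9325 lower at an unadjusted p under 0.05. Libraries did not overlap, with plasma cells below, at 65.4% of all loci, and the median difference of all loci was -4.41 points, so a lower locus is the common case. The called loci had a median of 63.0% in naive B cells, and 52.8% and 42.1% in plasmablasts and plasma cells. The count depended on single libraries: it was 10 without plasmablast 2, 243 without plasma cell 3, 1753 without plasmablast 1 and 3450 without plasma cell 1. With the background subtracted 11 loci were called, though 758 of the 762 kept an adjusted p under 0.05, and in the 9-library fit none was (smallest adjusted p 0.439, with a median difference of -2.32 points).

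Of the 762 loci, 9 were called in each of the 6 fits that left out a library, 11 were called with the background subtracted, and 7 met both. Spsb2, an adaptor of a ubiquitin ligase, had 30.2%, 29.8% and 32.1% over 9 CpGs in plasmablasts and 12.3%, 5.77% and 11.6% in plasma cells, with 34.1% in naive B cells. Its plasma cell libraries were all far below the plasmablasts, whose mean over the locus stood near the naive one (-20.8 points, SE 1.78, adjusted p = 1.87e-05). Of the 9 CpGs, 6 lay within 1 kb of the start site and were low throughout (plasmablasts 5.88%, plasma cells 2.43%, naive 2.96%). At the CpG of Spsb2 with the largest difference, plasmablasts lay below the naive level (87.0% against 100%), and plasma cells had 26.9%. Nearness to the naive level thus holds for the locus mean and not for each CpG. Ubxn1, a cofactor of the segregase p97, had 53.3%, 53.5% and 49.3% over 6 CpGs against 32.7%, 32.2% and 29.9% (-20.4 points, adjusted p = 1.87e-05). Trim72, which acts in membrane repair, had 56.6%, 58.1% and 63.1% over 15 CpGs against 39.0%, 38.5% and 34.3% (-22.0 points, adjusted p = 2.55e-05). The largest called difference was that of A430093F15Rik on chromosome 19, at 73.5%, 80.1% and 75.7% against 55.1%, 52.8% and 53.2% (-22.7 points). Among the others called with the background subtracted were Zbtb32, a transcriptional repressor known in plasma cells (61.5% to 42.8%), Sik2, a kinase of the salt-inducible family (17.3% to 4.90%), Sit1, a lymphocyte adaptor (23.2% to 10.8%), Catsper3, a sperm ion channel subunit (79.9% to 59.3%), and Ift27, of the ciliary transport complex (38.7% to 24.4%). In the 9-library fit the differences of these loci kept their sign, from -7.67 points in Sit1 to -18.5 in A430093F15Rik. Snord47, Lrmp, Bcap31, Slc7a7 and Tapbp complete the 10 largest called differences, each between -20.1 and -21.6 points.

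The genes of the plasma cell program and of mature B cell identity were described by lists chosen with earlier results of these data known. In the plasma cell program 5 of 26 measured loci were called lower, against 4.82% of all loci, and the median difference was -5.95 points beside -4.41 over all. Arid3a, a DNA-binding factor that acts at the immunoglobulin heavy chain locus, had 38.0%, 39.9% and 37.3% over 103 CpGs in plasmablasts and 29.6%, 22.5% and 24.9% in plasma cells (-12.7 points, SE 1.83, limma adjusted p = 0.0011). Il10, which encodes an anti-inflammatory cytokine that plasma cells can make, had 21.0%, 28.6% and 23.5% over 20 CpGs against 16.6%, 14.4% and 13.9%, with 69.1% in naive B cells (-9.37 points, adjusted p = 0.0056). Pim1, a survival kinase, went from 28.1% to 20.4%, and Il6ra, the receptor of a cytokine that sustains plasma cells, from 49.2% to 39.9%; Ly6a was the other one called. The central regulators did not pass: Prdm1 (Blimp-1) differed by -6.73 points (adjusted p = 0.0212), Irf4 by -6.89 (0.0612) and Xbp1 by -3.11 (0.1), and Sdc1, which encodes the sorted marker CD138, by -6.78 (0.0143).

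In the mature B cell list 5 of 34 loci were called lower, beside 4.82% of all loci, with a median difference of -5.31 points. Pou2f2 (Oct-2), a B cell transcription factor, had 48.2%, 51.1% and 46.5% over 15 CpGs in plasmablasts against 34.3%, 33.7% and 35.5%, after 86.4% in naive B cells (-14.1 points, adjusted p = 3.26e-04, and 0.0092 with the background subtracted). Blk, a Src-family kinase of B cells, went from 66.1% to 53.4%, Cxcr5, the receptor that guides B cells into follicles, from 30.9% to 21.2%, and Cbfa2t3, a transcriptional corepressor, from 38.1% to 29.0%. Blnk, an adaptor of the B cell receptor, was the remaining call. Pax5, Bach2 and Ebf1, which hold B cell identity, differed by -4.35, -4.71 and -5.04 points, each with adjusted p from 0.0367 to 0.0528, and Ptprc, whose B220 form was used to sort the cells, by -3.04 (0.103). Ciita, the master activator of MHC class II, differed by -8.18 points (0.0125).

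Of 27 loci in the TLR4 and NF-kB list, the signalling route set off by LPS, 3 were called: Irak2, a kinase of the receptor complex (27.7% to 19.5%), Nfkbia, the inhibitor that holds NF-kB in the cytoplasm (64.7% to 55.6%), and Tnfaip3 (A20), which ends the signal (53.9% to 46.5%). Nfkbia and Irak2 were also called over their start site regions, with differences of -10.96 and -8.24 points. Among homing and egress receptors 3 of 24 were called, namely Cd44, Cxcr5 and S1pr1. In DNA methylation and chromatin 2 of 27 were called, Mbd1, which binds methylated CpGs (55.4% to 41.3%), and Idh2, which makes the 2-oxoglutarate that Tet enzymes use (65.3% to 53.5%). Tet2 differed by -2.58 points (adjusted p = 0.197) and Dnmt1 by -5.30 (0.0497). None of 51 loci of the unfolded protein response and secretion and none of 31 of metabolism and mTORC1 was called, with medians of -4.13 and -3.84 points, and 1 of 37 proliferation loci (Rbl1) was, with a median of -3.67. Survival genes had 1 call of 19 (Bid), the Hox and Polycomb list 1 of 73 (Hoxc11) and germline genes 1 of 28 (Spo11). Over all loci the called share was 4.82% and the median -4.41 points, and no list was tested against them.

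Imprinted genes had the lowest median of the 16 lists, -6.41 points, and 3 of 27 loci called, beside -4.41 points and 4.82% over all loci. Mest, expressed from the paternal copy, had 55.9%, 62.1% and 62.9% over 10 CpGs in plasmablasts and 44.2%, 40.9% and 36.7% in plasma cells (-19.7 points, SE 2.28, adjusted p = 5.55e-04). Igf2r had 49.6%, 58.6% and 54.6% over 32 CpGs against 44.1%, 35.9% and 36.5% (-15.4 points, adjusted p = 0.0057), and Gnas, which encodes the alpha subunit of the stimulatory G protein, went from 55.5% to 43.5%. In these 3 loci the plasmablasts stood within 3 points of the mean naive level, at 62.9%, 52.7% and 56.8%. In the 9-library fit the difference was -15.1 points for Igf2r, -7.17 for Gnas and -1.63 for Mest. For Mest a lower level particular to plasma cells is therefore not shown. In start site regions the median over 17 imprinted genes was -8.63 points beside -3.26 over all. The median naive level of all regions was 3.66%, and regions near that level could hardly fall. Among start site CpGs of intermediate naive level, those of imprinted genes differed by -14.8 points and other autosomal ones by -8.60. That gap gave p = 0.2 (exact permutation, adjusted 0.333). A larger difference particular to imprinted start sites is therefore not shown.

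**Figure D4:**
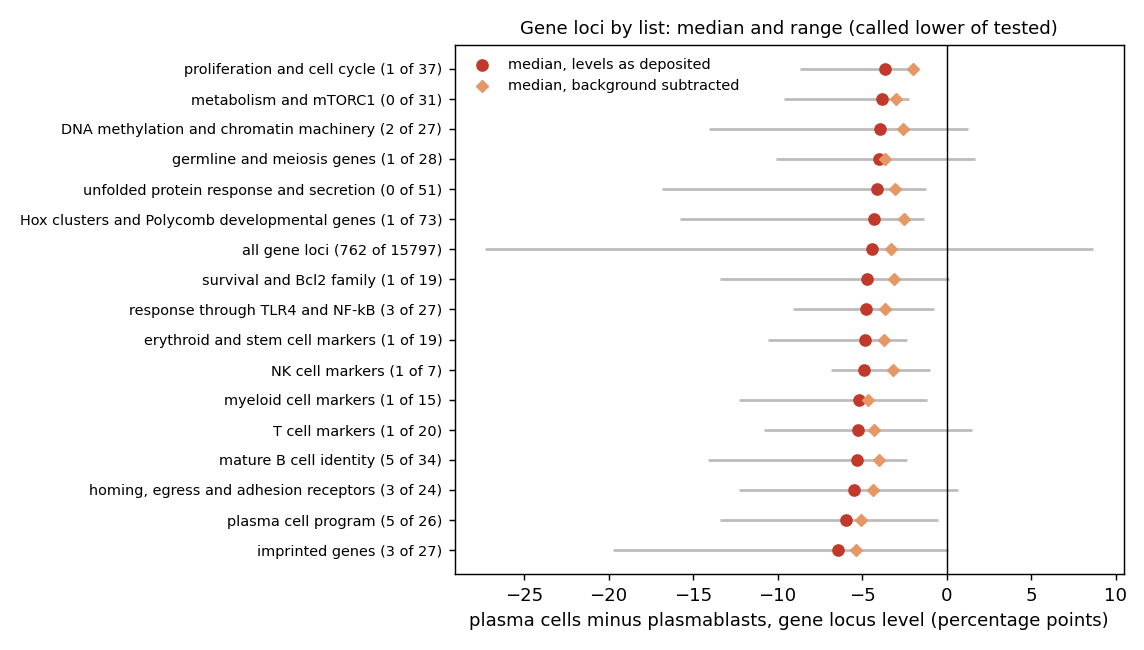
Plasma cells minus plasmablasts over gene loci in percentage points, for 16 lists and all loci. Red points are medians, orange diamonds medians with the background subtracted and grey lines the range; numbers give loci called lower of those tested. Medians run from -6.41 (imprinted genes) to -3.67 points (proliferation), with -4.41 over all loci.

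Loci of genes that mark other cell types had lower mean levels in plasma cells too. Differences were below 0 at 19 of 20 T cell, 7 of 7 NK cell, 15 of 15 myeloid and 19 of 19 erythroid and stem cell marker loci, beside 98.4% of all gene loci, with 1 called in each list (Tcf7, Gzma, Mpo and Ly6a). The median level over T cell markers was 64.7% to 66.4% in plasmablast and 58.3% to 62.7% in plasma cell libraries. Over NK cell markers it was 31.3% to 34.8% and 26.1% to 28.7%, over myeloid markers 57.3% to 61.9% and 55.7% to 56.4%, and over erythroid and stem cell markers 51.1% to 55.9% and 48.7% to 52.4%. The part of other cells in the comparison was not tested.

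Start site regions, the CpGs within 1000 bp of a start site where at least 5 were compared, were called lower at 127 of 9381 genes (1.35%) and higher at 0 (3 higher at an unadjusted p under 0.05 in limma), and plasma cell libraries lay below all plasmablast libraries in 65.3%. The called regions had a median of 36.5% in naive B cells, and 37.1% and 20.5% in plasmablasts and plasma cells. The median naive level of all regions was 3.66%, and regions near that level could hardly show the 5 points that a call needs. On the X chromosome 31 of 254 tested regions were called, and all 31 lay between 15.6% and 38.2% in plasma cells. Diap2, a formin of the actin skeleton, had 42.1%, 49.3% and 47.4% over 16 CpGs in plasmablasts and 27.4%, 19.3% and 25.9% in plasma cells (-22.1 points, SE 2.87, adjusted p = 3.31e-05). Atrx, a chromatin remodeller, had 45.5%, 49.7% and 52.7% over 8 CpGs against 33.1%, 20.0% and 29.2% (-21.9 points). Naive B cells had mean levels of 32.8% in Diap2 and 32.6% in Atrx, so plasmablasts stood above them in both. Ubqln2 and Bcap31 differed by -22.6 and -21.2 points. The regions whose sequence is printed above differed by -19.8 points in Gpm6b, -19.0 in Phf8, -18.0 in Igf2r, -13.4 in Gpc3 and -11.5 in Rbm10. Among called regions, the largest autosomal differences were at Trim72 (49.2%, 47.4% and 54.0% against 26.5%, 20.9% and 20.3%, -27.6 points, adjusted p = 9.6e-07) and Vasn (-26.2 points). Slc7a7, an amino acid transporter subunit (-24.4), Lrmp (-23.2), Atat1 (-21.8) and Pstpip2 (-21.7) followed. No region was called with the background subtracted (smallest adjusted p 0.0247) or in the 9-library fit, and the count was 1 without plasmablast 2, 25 without plasmablast 3, 307 without plasmablast 1 and 425 without plasma cell 1. With the background subtracted the differences were -21.1 points in Diap2 and -20.9 in Atrx, while the median over all regions went from -3.26 to -1.14 points, and to -0.81 in the 9-library fit. In Bcap31, whose start site region holds the same 7 CpGs as its locus, the 9-library fit gave -5.66 points.

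**Figure D5:**
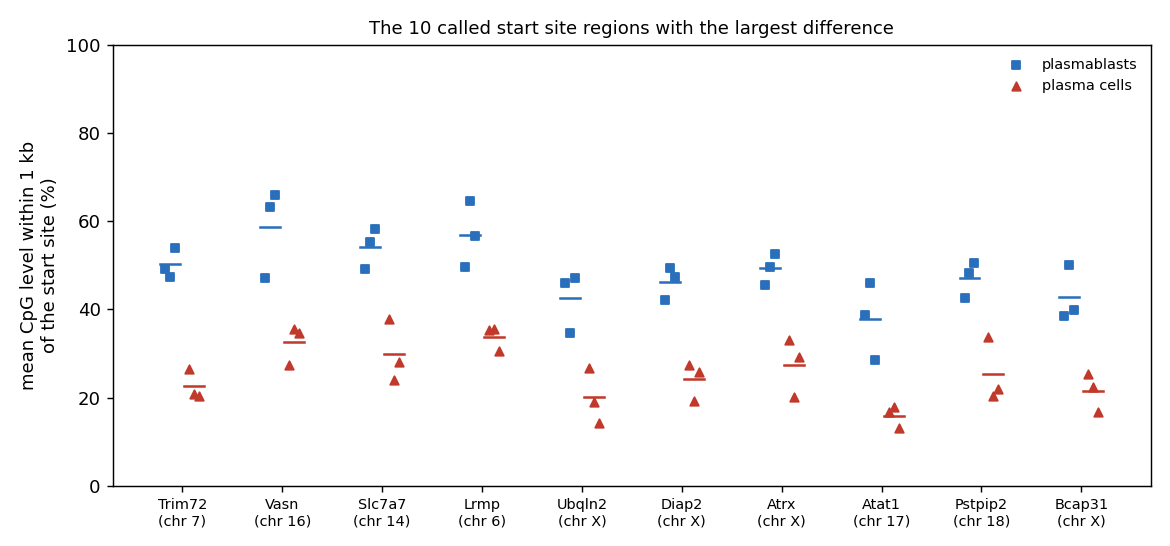
Mean CpG level in percent within 1 kb of the start site in each plasmablast and plasma cell library, for the 10 called regions with the largest difference. In all 10 the plasma cell libraries lie below the plasmablast libraries, and 4 of the regions are on the X chromosome.

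Short segments, runs of at least 4 compared CpGs no more than 100 bp apart, gave 27 calls lower of 30821 (0.0876%) and 0 higher (57 at an unadjusted p under 0.05 in limma), at differences of at least 10 points. Plasma cell libraries lay below all plasmablast libraries in 35.8% of the tested segments. The called segments had a median of 95.7% in naive B cells, and 72.2% and 34.6% in plasmablasts and plasma cells. Arid3a, with 103 CpGs, held 3 of them in its introns (build mm9). At chr10:79398144-79398335 its 8 CpGs had 70.6%, 68.5% and 70.5% in plasmablasts and 41.6%, 26.3% and 35.9% in plasma cells, from 98.3% in naive B cells (-35.3 points, SE 4.87, adjusted p = 0.0052). At chr10:79395200-79395220 4 CpGs differed by -35.1 points, and at chr10:79394949-79395006 5 CpGs by -28.8 points. The start site region of Arid3a was not called, so within this gene the called CpGs were intronic.

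The 4 CpGs at chr6:145844356-145844370, intergenic and 30509 bp from the start of Bhlhe41, a circadian repressor, had 63.9%, 78.3% and 80.4% against 42.2%, 21.0% and 15.0% (-48.1 points). An intronic segment whose closest start is that of the chemokine receptor gene Ccr4, at chr9:114365473-114365507, differed by -46.6 points, with plasma cells spread from 21.3% to 64.4%. Segments assigned to Smndc1 (-39.0 points), Ift27 (-33.9, in an exon within 1 kb of the start site), Peg13, an imprinted transcript (-32.8, likewise), Mest (-32.3) and 4931440P22Rik (-36.1) were also among the largest. In the Peg13 and Mest segments plasmablasts, at 74.2% and 51.0%, stood above naive B cells, at 55.8% and 37.5%. No segment was called with the background subtracted, where the smallest adjusted p was 0.0656, and the count was 0 without any 1 plasmablast library, 197 without plasma cell 1 and 58 without plasma cell 3.

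At single CpGs the quasi-binomial model with its dispersion moderated over all CpGs called 0 of 489874 lower (0%) or higher, with a smallest adjusted p of 0.459; at an unadjusted p under 0.05 it had 52507 lower and 888 higher. That count is not read as an absence of change. The same model recovered none of the changed CpGs in simulated data. Few CpGs were changed there, so its power in the real data was not measured. limma on the log2 ratio of methylated over unmethylated reads called 958 CpGs lower (0.196%) and 1 higher (0.000204%). A dispersion prior drawn only from CpGs of 5% to 95%, a choice made after the count of 0 was seen, called 2901 lower and 4 higher, among them 859 of the 958. None of the 958 was called in each of the 6 fits that left out a library: limma called 744 without plasmablast 1, 25 without plasmablast 2, 2 without plasmablast 3, 576 without plasma cell 1 and 0 without plasma cell 2 or 3. Plasma cell libraries lay below all plasmablast libraries at 16.6% of all CpGs and above them at 1.22%. The 958 CpGs had a median of 83.6% in naive B cells, and 72.0% and 26.8% in plasmablasts and plasma cells. At 429 of them plasmablasts stood above naive B cells. Calling CpGs that are high in plasmablasts favours this, and the share over all CpGs was not taken. Of the 888 runs of called CpGs within 1000 bp, 838 were single CpGs.

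By number of CpGs lower in limma, Arid3a and Bcor led with 6 each, followed by Ccr4 with 4, then Spsb2, Gm3604, Smndc1, Trim56, Snx20 and Tmc6 with 3. Bcor, an X-linked partner of the repressor Bcl6, had 467 compared CpGs, and its locus differed by -6.62 points (adjusted p = 0.012). The CpG of Arid3a with the largest difference, at chr10:79397891 in an intron (mm9), had pooled levels of 80.5% in plasmablasts and 26.1% in plasma cells, after 96.4% in naive B cells. In Spsb2 such a CpG lay at chr6:124748039, 10653 bp from the start site and intergenic, with 100% in naive B cells, 87.0% and 26.9%. The single CpG called higher, at chr17:25845348 and 8768 bp from the start of Gng13, a G protein gamma subunit, had 53.3%, 69.0% and 57.9% in plasmablasts and 100%, 82.4% and 95.2% in plasma cells over 63 and 69 reads, beside 91.4% in naive B cells. No fit that left out a library called it.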

How the data were processed

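Reduced representation bisulfite sequencing cuts DNA with MspI, which enriches CpG-rich parts of the genome, and bisulfite turns unmethylated cytosines into thymine. Per the labels' protocols, libraries got adaptors of 2 kinds and 50 bp single-end reads; the sources used here do not give the adaptor of each library. Bismark and Bowtie2 with build mm9 are named in the submitters' processing notes. The authors deposited counts of methylated and unmethylated reads per library and the same as a fraction, with the closest gene, its distance and a class (promoters from 2500 bp upstream to 500 bp downstream). PCR reads are not independent molecules.

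CpGs with 10 or more reads in each of the 6 libraries were used. Loci, start site regions and segments were tested with limma 3.58.1 (trend, robust) in R 4.3.3 on unweighted mean levels in percent, and single CpGs with a quasi-binomial logistic model (squeezeVar dispersion, never below 1, F test) and with limma on log2 ratios with 1 read added. The tests of CpGs and gene loci were tried on simulated data with few changed features, so power in the real data was not measured. In the simulated data the quasi-binomial model recovered no changed CpG, and limma on CpGs some of the large changes and none of the small. On loci limma recovered most large and few small changes. As the quasi-binomial model also called none in the real data, genes were ranked by the limma calls, a departure from the plan. Differences of CpGs are of pooled reads. Library means were compared by exact permutation (SciPy 1.17.1). P-values are Benjamini-Hochberg adjusted over all features of a test, and cover the spread between these libraries only. Groups follow GEO's labels. The background of a library is the mean level over CpGs under 5%, removed as (level - b) / (1 - b).

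Members and gene lists were chosen with earlier results of these data known. Named genes are the 10 with most CpGs lower, up to 5 with CpGs higher, the 10 largest called loci, start site regions and segments, up to 4 per list by p, and fixed regulators. Alternatives were coverage minimums of 5 and 20, the replicate number as a block, summed reads, background, leaving out each library, and, added after seeing the data, the 9-library fit and another dispersion prior. Promoter sequences are RefSeq's (GRCm38.p6); CpG and segment positions are the authors' in mm9. Results for some genes that the rule picks are not reported here.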

Additional observations from a re-analysis of the deposited data

How the results depend on the processing

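The means over CpG classes kept their sign in each alternative, with 1 exception: CpGs with a mean under 5%, the set that defines the background, gave 0.0015 points in the 9-library fit. Without 1 library the mean over all CpGs ran from -5.80 to -4.18 points, promoters from -4.66 to -2.93, intergenic CpGs from -6.78 to -4.66 and the X chromosome from -8.78 to -5.84. Counts moved far more, and the cause was not tested. Lower gene loci numbered 2 with summed reads, 11 with the background subtracted, 0 in the 9-library fit, and 10 to 3450 without 1 library, where higher loci reached 1 (range 0 to 1). Lower start site regions numbered 986 with summed reads, 53 at a minimum of 5 reads, 0 with the background subtracted, 0 with the library set, and 1 to 425 without 1 library (higher, 0 to 1). Lower segments numbered 450 with summed reads, 0 at a minimum of 5 reads, 0 with the background subtracted, 0 with the library set, and 0 to 197 without 1 library. For CpGs, limma gave 958 lower and 1 higher, and the dispersion prior from CpGs of 5% to 95% gave 2901 lower and 4 higher in place of 0; limma with the background subtracted from the difference gave 904, and with the library set 0. Among named loci only Snx20 turned direction, to 0.43 points at a minimum of 20 reads.

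The labels do not say whether replicate numbers pair the libraries. Deviations of CpG levels from the group mean correlated at -0.0285, -0.00446 and -0.0270 between same-numbered libraries. This cannot exclude a pairing, since at such coverage the deviations hold much read sampling noise. With the replicate number as a block, 1862 gene loci were lower and 2 higher, 279 start site regions and 250 segments were lower, and limma on single CpGs gave 1454 lower and 5 higher. Median coverages were 24 to 33 reads per library; for single CpGs limma gave 879 lower at a minimum of 5 reads and 905 at 20.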

Other observations

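Other called segments lay in or near genes that the rule for named genes does not pick, and were chosen after their values were seen (mm9). In an intron of Pecam1, an adhesion molecule of blood and endothelial cells, 4 CpGs at chr11:106570985-106571023 had 82.2% in plasmablasts and 52.9% in plasma cells. Near Arg1, which encodes arginase, 4 intergenic CpGs at chr10:24677512-24677541 had 84.2% and 53.4%, with 97.7% in naive B cells. In an exon assigned to Wdfy3, which acts in autophagy, 4 CpGs at chr5:102366546-102366573 had 75.8% and 43.3%. In an intron of Col24a1, a collagen gene, 4 CpGs at chr3:145055083-145055133 had 43.7% and 14.2%, so plasmablasts already stood well below the 88.5% of naive B cells. Like the other segments, none of these was called with the library background subtracted.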
